A study of Mus musculus with 16 samples.

Results

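The transcripts described here are those of 130 genes of 7 ubiquitin ligase families that had an acetylated-RNA peak in at least 1 of 8 peak lists of mouse liver, out of 8602 genes with a peak. They were chosen by name alone: symbols that start with Rnf, Trim, Fbxo, Fbxl, Fbxw, Cul or Herc followed by a digit, without genes annotated to the endocytosis or insulin signalling pathways. That last condition left out 1 gene, Rnf41, which had a peak in 0 db/db and 2 lean lists. By family the members were 51 Rnf, 30 Trim, 21 Fbxo, 9 Fbxl, 8 Cul, 6 Fbxw and 5 Herc genes. Of the 130, 64 carried the annotation ubiquitin-protein transferase activity in the authors' deposited table and 77 carried zinc ion binding. The SCF ligase complex was annotated for 16 and the ubiquitin mediated proteolysis pathway for 18.

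N4-acetylcytidine (ac4C), a modified cytidine written by the enzyme NAT10, was pulled down with an antibody from fragmented, ribosome-depleted liver RNA of male mice. The 2 groups were db/db mice, made obese and diabetic by a mutated leptin receptor, and lean control mice of the C57BL/6 strain. The background strain of the db/db mice and the age of either group are not given in the sources used here, and no treatment is named. The 16 samples are 8 immunoprecipitates and their 8 inputs, 4 per group, and the files analysed were 8 peak lists: db1, db2, db4 and db5 of db/db mice, and C5, C6, C7 and C8 of lean mice.

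Ubiquitin ligases choose the proteins that are tagged with ubiquitin, often for destruction by the proteasome. Rnf and Trim proteins mostly carry a zinc-binding RING domain that brings a ubiquitin-conjugating enzyme to the substrate. Cullins are scaffolds of larger complexes, in which F-box proteins (Fbxo, Fbxl and Fbxw) hold the substrate for Cul1, while Herc proteins carry a HECT domain that takes up ubiquitin itself. In the liver such ligases act on metabolic enzymes, transcription factors and signalling proteins.

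A peak is a stretch where the authors' caller found more immunoprecipitated than background reads. Its fold is the authors' own ratio for that peak in that list, so folds are given to describe peaks, and no change between groups is read from them. Read totals were not used here and sequencing depth is unknown, so no peak in a list means only that none was called. A call depends on how much of the transcript is present as well as on acetylation, and fewer cells of a type and less RNA per cell cannot be told apart in whole liver. The lists held 7583 to 9754 peaks, with 9028 ± 651 in db/db and 8061 ± 376 in lean lists (SD, n = 4 each), and no 2 lists shared more than 27 peaks with the same position and values. Of the 12 hepatocyte markers examined, 3 had a peak in any list. Alb, Apoa1, Apob and Ttr, which define hepatocytes, had none in any list, so the peak lists do not by themselves show the cell type that dominates liver.

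The members accounted for 942 of 68356 peaks (1.38%). These fell into 351 of 25437 regions, made by merging peaks of different lists that shared at least 1 bp. A member had a median of 2 regions, 46 members had a single region, and 15 had at least 5. Herc1, a very large HECT ligase gene, had the most, 21. Member peaks were 26 to 2734 bp wide with a median of 231 bp, against 183 bp over all peaks, and their median fold of 4.085 stood beside 4.07 over all peaks. The false discovery rate deposited with the peaks was 100% in 940 of the 942 member peaks (99.8%), beside 99.2% of all peaks. It was 39.01% in the lowest of the other member peaks. The position of a recurrent peak was often fixed: of 190 member regions called in at least 2 lists, 128 had the same start and end wherever they were called. The same count was not made over all regions, so this is not read as particular to the members.

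Sequences at annotated transcript starts are shown first, because 6 members had a peak on the start in every list. RefSeq start windows were matched for 103 of the 130 members, on the build of the peaks (GRCm38.p6). In each line below the 100 bases before the start are in lower case, and the first 50 transcribed bases are in capitals, as DNA 5′ to 3′ on the strand of the gene. The first set gives the starts that met a peak in all 8 lists.

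Fbxo31 (chr8:121578757-121578906, minus strand): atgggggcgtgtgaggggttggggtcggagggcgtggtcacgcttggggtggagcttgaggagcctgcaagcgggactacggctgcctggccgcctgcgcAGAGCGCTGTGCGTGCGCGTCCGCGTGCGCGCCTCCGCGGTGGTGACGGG
Herc4 (chr10:63243697-63243846, plus strand): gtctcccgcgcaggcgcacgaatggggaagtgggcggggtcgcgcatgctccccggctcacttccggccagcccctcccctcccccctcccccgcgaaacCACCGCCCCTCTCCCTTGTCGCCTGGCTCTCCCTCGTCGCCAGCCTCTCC
Rnf10 (chr5:115272846-115272995, minus strand): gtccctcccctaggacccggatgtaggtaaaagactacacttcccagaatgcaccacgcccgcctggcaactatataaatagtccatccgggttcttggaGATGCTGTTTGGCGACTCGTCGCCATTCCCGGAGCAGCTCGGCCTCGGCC
Rnf149 (chr1:39577298-39577447, minus strand): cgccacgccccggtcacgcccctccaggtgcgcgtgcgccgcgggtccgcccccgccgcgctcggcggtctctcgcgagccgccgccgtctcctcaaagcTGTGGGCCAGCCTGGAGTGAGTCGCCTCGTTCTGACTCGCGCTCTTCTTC
Rnf217 (chr10:31609676-31609825, minus strand): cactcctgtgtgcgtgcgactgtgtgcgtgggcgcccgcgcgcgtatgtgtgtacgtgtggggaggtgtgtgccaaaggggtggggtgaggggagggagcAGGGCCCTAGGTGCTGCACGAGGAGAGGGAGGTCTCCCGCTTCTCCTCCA
Trim44 (chr2:102400851-102401000, minus strand): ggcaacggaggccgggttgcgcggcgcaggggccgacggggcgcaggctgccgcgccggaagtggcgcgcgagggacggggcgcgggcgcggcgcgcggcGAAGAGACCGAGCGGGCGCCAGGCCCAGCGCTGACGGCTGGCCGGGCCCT

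These 6 were 5.83% of the 103 members with a window, beside 5.45% of the 6620 genes that had both a peak and a window. In at least 1 list, 46 members (44.7%) had a peak on the transcribed 50 bases, beside 46.2% of all such genes. The second set gives the starts whose calls differed between the groups by at least 3 lists, a choice made after the values had been seen.

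Cul5 (chr9:53667458-53667607, minus strand): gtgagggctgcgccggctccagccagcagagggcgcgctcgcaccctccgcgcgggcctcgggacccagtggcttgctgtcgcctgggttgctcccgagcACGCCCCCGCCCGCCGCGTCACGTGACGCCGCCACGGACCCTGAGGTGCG
Fbxl17 (chr17:63500531-63500680, minus strand): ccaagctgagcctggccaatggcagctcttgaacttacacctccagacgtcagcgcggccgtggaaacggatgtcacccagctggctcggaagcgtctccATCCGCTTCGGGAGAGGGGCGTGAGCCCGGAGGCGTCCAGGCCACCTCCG
Trim37 (chr11:87126975-87127124, plus strand): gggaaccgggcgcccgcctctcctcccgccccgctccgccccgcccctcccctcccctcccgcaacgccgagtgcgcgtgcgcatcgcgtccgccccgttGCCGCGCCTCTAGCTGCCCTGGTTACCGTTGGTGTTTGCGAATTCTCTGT
Trim7 (chr11:48837371-48837520, plus strand): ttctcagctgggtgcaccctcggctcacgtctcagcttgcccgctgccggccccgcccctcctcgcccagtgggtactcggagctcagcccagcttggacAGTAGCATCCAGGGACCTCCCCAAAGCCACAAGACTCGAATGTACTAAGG

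The starts of Cul5 and Fbxl17 were met by a peak in 1 db/db and 4 lean lists, that of Trim37 in 4 db/db and 1 lean list, and that of Trim7 in 3 db/db and 0 lean lists. The Trim7 start is an internal one, near the middle of the annotated gene. The capital letters were searched for CNNCNNCNNCNN, a run of 4 cytidines each followed by any 2 bases that has been linked to ac4C, on the transcribed strand only. It was present in the transcribed 50 bases of 33 of 103 members (32.0%), beside 30.8% of the 6620 genes with a peak and 21.7% of the first windows of 27025 RefSeq genes. Among the 46 members with a peak on the start it was found in 20 (43.5%), and among the 57 without one in 13 (22.8%). The same split was not made over all genes with a peak, so this difference is not read as particular to the members. Of the 6 starts called in every list, those of Herc4 and Rnf217 held it and 4 did not. Guanine and cytosine made up a median of 72% of the capital bases in the 46 starts with a peak and 64% in the 57 without, so base composition moved together with these counts and its part in them was not tested.

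Of the 130 members, 24 (18.5%) had a peak in all 8 lists and 29 (22.3%) in a single list, beside 19.8% and 23.0% of all 8602 genes. They included Cul3, Fbxl17, Fbxo9, Fbxo31, Fbxw7, Herc1, Herc2, Herc4, Rnf10, Rnf20, Rnf43, Rnf111, Rnf126, Rnf138, Rnf149, Rnf168, Rnf187, Rnf217, Trim8, Trim12c, Trim25, Trim33 and Trim44. The number of lists had a weak rank correlation with gene length, in members (Spearman's rho 0.248 over 130 genes) and in all genes (0.253 over 8355 genes with bounds). This is a description across genes that share libraries.

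Trim12c had the strongest peaks by rank among the members called in every list. It belongs to a cluster of mouse genes related to the retrovirus restriction factor TRIM5 of primates. Its folds were 16.86, 12.84, 13.90 and 12.16 in db1, db2, db4 and db5, and 14.76, 18.27, 21.54 and 30.91 in C5, C6, C7 and C8. The highest was in C8 and the groups overlapped. The region lies near the 3′ end of the gene (chr7:104339112-104340695, gene on the minus strand from 104338754 to 104353358). Trim5, Trim12a and Trim12c are related genes close together on chromosome 7. Reads may be placed on the wrong one of them, which was not examined, so the calls of all of them are uncertain.

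Rnf20 encodes a ligase that places ubiquitin on histone H2B. Its main region (chr4:49649963-49650327, plus strand, at 72.9% of the gene's length) had folds of 14.66, 18.90, 14.22 and 15.37 in db1, db2, db4 and db5 and of 15.01, 24.21, 12.56 and 13.41 in C5 to C8. These ranges overlapped and every list placed the region among its strongest peaks. Trim44, an unusual Trim protein without a RING domain, had a region 888 bp wide at its 5′ end (chr2:102400013-102400900, minus strand). Its folds were 13.51, 18.47, 11.74 and 15.02 in the db/db lists and 12.29, 10.28, 16.76 and 11.34 in the lean lists, again with overlap.

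Fbxo31, an F-box protein known for removing cyclin D1 after DNA damage, held the highest fold of any member. Its region covers the transcript start shown above (chr8:121578458-121578806, minus strand). The folds were 34.22, 6.00, 5.07 and 25.78 in db1, db2, db4 and db5, and 58.18, 108.90, 4.82 and 4.42 in C5, C6, C7 and C8. The lists db1, db5, C5 and C6, from both groups, were high and the other 4 lay between 4.42 and 6.00, with nothing in between. The start and end of the peak were the same in all 8 lists.

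Fbxl17, an F-box protein of protein quality control, had folds of 13.07, 7.53, 9.75 and 6.79 in the db/db lists and 5.80, 8.0, 7.28 and 7.81 in the lean lists, with overlap. Its region was called in all 8 lists but reached the transcript start in db2 and the 4 lean lists only, as shown by the window above. Rnf43, which removes Wnt receptors from the cell surface, had best folds of 6.53, 11.43, 10.24 and 11.57 in the db/db lists and 5.83, 4.36, 4.89 and 5.89 in the lean lists. Its db/db folds were all above the lean ones, but the best peaks were not all at 1 place, since no single region of the gene was called in every list. How many members or other genes have folds that separate by group was not counted, so such cases are not read as unusual.

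Trim8 was the only gene of the 130 with 2 regions called in every list, at the low end of its annotated bounds (chr19:46501648-46503013) and farther along (chr19:46513108-46513341). The first had folds of 5.41 to 11.96 and the second a narrow range of 4.55 to 5.62. Rnf138, a ligase of DNA double-strand break repair, had best folds of 9.60, 7.88, 8.66 and 3.45 in db1, db2, db4 and db5 and 10.44, 11.49, 16.88 and 15.54 in the lean lists, with db5 the lowest. Its lean folds were all above the db/db ones, and no change is read from this, as the number of genes with such folds was not counted. Rnf149 and Rnf217, RING ligase genes called at the start in every list, had folds of 5.09 to 10.52 and 4.73 to 10.38.

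In all, 18 member regions (5.13%) were called in every list, beside 6.21% of all regions, and 12 of the 18 had the same start and end in all 8. A score of at least 50, a stricter p-value of 1e-05, was reached in every list by a peak of 9 members, among them Fbxo31, Rnf10, Rnf20, Rnf149, Rnf187, Trim8, Trim12c and Trim44. They made up 6.92% of the members, beside 6.78% of all genes.

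**Figure D1:**
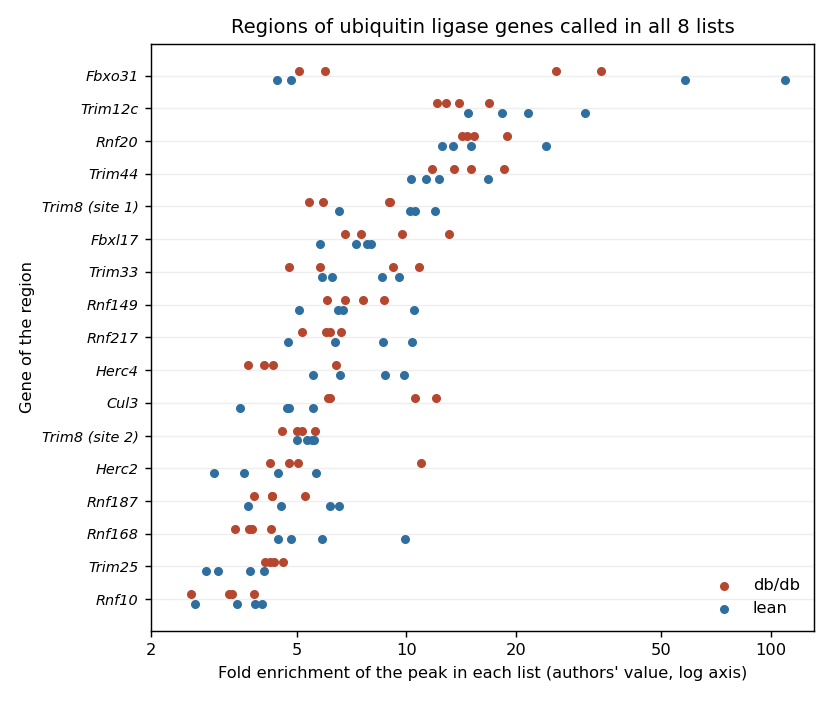
Fold enrichment (authors' value, log axis) of the regions of ubiquitin ligase genes called in all 8 lists and reported here, 1 row per region, with db/db lists in red and lean lists in blue. Fbxo31 spans 4.42 to 108.9 with lists of both groups at each end, and the other regions stay between 2.57 and 30.91.

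The main comparison asked whether ligase transcripts are called more often in db/db or in lean lists. Members with a peak numbered 72, 75, 83 and 66 in db1, db2, db4 and db5 and 74, 67, 65 and 63 in C5, C6, C7 and C8. The highest count was in db4 and the lowest in C8, and the groups overlapped, since C5 exceeded db1 and db5. The means were 74 ± 7.07 and 67.25 ± 4.79 genes (SD, n = 4 each), a difference of 6.75. As a share of the 130 members this was 56.9% against 51.7%, beside 54.3% against 50.6% of all 8602 genes. The difference shrank to 1.5 genes when every list was limited to its 7583 highest-scoring peaks, and to 1.0 when peaks with a score under 50 were dropped. Without db4 it was 3.75.

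The families did not share 1 direction. Rnf genes stood level at 28.75 ± 3.20 and 28.5 ± 0.577 genes per db/db and lean list (n = 4 each, as for the other families). Trim genes averaged 18 ± 2.94 and 13.75 ± 2.99, and Fbxo genes 11.25 ± 1.89 and 8.25 ± 1.71, each with overlap between the groups. Of the 21 Fbxo genes, 11 had a peak in more db/db than lean lists and 3 in more lean lists, beside 38.2% and 30.1% of all 8602 genes.

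Fbxl genes were called in 5, 5, 5 and 6 genes in db1, db2, db4 and db5 and in 3, 4, 4 and 2 genes in C5, C6, C7 and C8. Here the groups did not overlap, in a family of 9 genes picked out among 7 families. Of all 8602 genes, 51.2% to 58.7% had a peak per db/db list and 47.3% to 53.7% per lean list. By gene, 5 Fbxl genes had a peak in more db/db lists, 1 in more lean lists and 3 in equal numbers. Over all genes these shares were 38.2%, 30.1% and 31.7%. Cullins had the opposite order, with 3.75 ± 1.71 genes per db/db list and 5.25 ± 1.71 per lean list, as had Fbxw genes with 3.5 ± 0.577 and 4.5 ± 0.577. Herc genes stood at 3.5 ± 0.577 and 3.75 ± 0.957. The ranges of these 3 families touched or overlapped.

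**Figure D2:**
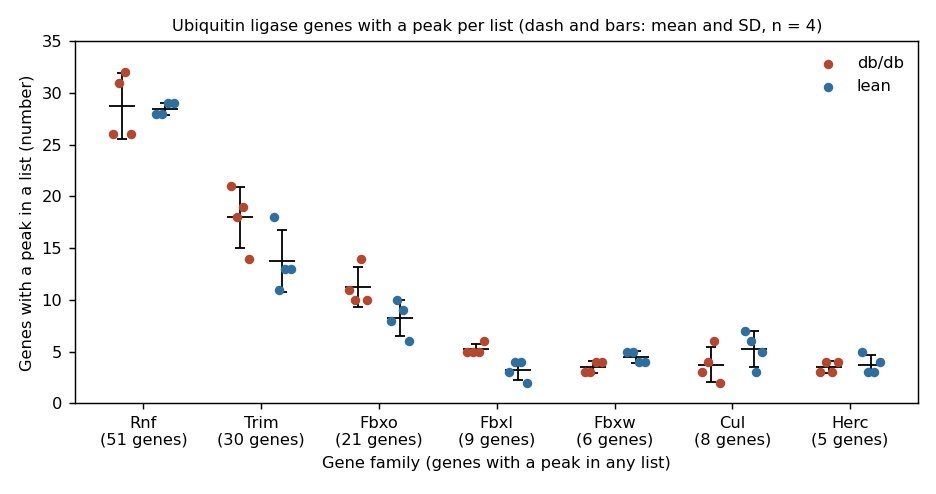
Number of genes with a peak in each list, by ubiquitin ligase family, with db/db lists in red and lean lists in blue (points: lists; dash and bars: mean and SD, n = 4). Fbxl is the family whose groups do not overlap, at 5 to 6 genes in db/db lists and 2 to 4 in lean lists. Of all genes, a mean of 54.3% had a peak per db/db list and 50.6% per lean list.

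One member had a peak in all 4 db/db lists and no lean list (0.769%), where the background over all genes was 0.942% in that direction, and 0 members had the reverse pattern, beside 0.674% of all genes. The member was Rnf44, a RING finger gene on chromosome 13. Its best folds were 2.86, 4.93, 6.60 and 5.45 in db1, db2, db4 and db5, with no peak in C5, C6, C7 or C8. In db2, db4 and db5 the peak covered the 3′ end of the gene (chr13:54679399-54681811, minus strand, beginning at the annotated low bound). In db1 it was a different one near the 5′ end (chr13:54693729-54693943). Two-sided Fisher's exact test gave an unadjusted p of 0.0286, the smallest that 4 against 4 lists allow, and an adjusted p of 1 over 8602 genes (Benjamini-Hochberg).

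With 4 lists a group, a pass after adjustment would need most genes to have the extreme pattern. Fisher's exact test passed 0 of 8602 genes (0% called), against 139 at an unadjusted p under 0.05, of which 1 was a member. An exact permutation test of the number of peaks per list also passed 0 of 8602 genes (0% called), against 263 unadjusted, of which 3 were members (Rnf44, Rnf169 and Trim33). The counts of lists are therefore given as descriptions.

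A wider pattern of at least 3 lists of one group and at most 1 of the other was met by 10 members toward db/db (7.69%), with 7.16% of all genes as the background. Toward lean it was met by 2 members (1.54%), beside 5.03% of all genes. The first share lies near its background. The second rests on 2 genes, Cul2 and Rnf146.

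Among the 10, Trim7, which binds the glycogen primer protein glycogenin, was the strongest by rank. It was called in 4 db/db lists and 1 lean list, with best folds of 12.94, 10.10, 5.28 and 8.68 in db1, db2, db4 and db5 and of 4.17 in C5. The lean lists C6, C7 and C8 had no peak. All 5 lists had a peak at the same region (chr11:48838837-48839414, plus strand), and a second one over the internal start shown above had folds of 8.40, 8.50 and 7.48 in db1, db2 and db5.

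Trim5 had the same list pattern, with folds of 5.11, 3.46, 6.83 and 6.03 in the db/db lists and 5.49 in C5. Its region (chr7:104264046-104264959) also meets the bounds of the predicted gene LOC115486587, a further reason why its call is uncertain. The related gene Trim12a was called in db1, db4 and db5 at 5.11, 4.07 and 2.41 and in no lean list.

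Cul9, a large cullin that binds the tumour suppressor p53, had best folds of 3.75, 5.32 and 4.35 in db1, db2 and db4 and no peak in db5 or any lean list. These peaks fell in 3 different regions of the gene. Fbxo46 was called in db1, db4 and db5 at folds of 3.75, 4.42 and 4.50, and Trim41 in db1, db2 and db5 at 3.05, 4.11 and 3.58, both in no lean list. The 3 lists shared a region of Trim41 (chr11:48812300-48812395) at folds of 3.05, 4.11 and 3.10, and the best peak of db5 was at another place.

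Trim11 had folds of 6.67, 5.73 and 5.19 in db1, db2 and db4 and 3.95 in C5. Fbxl5, the iron-sensing F-box protein that removes an iron regulatory protein, had folds of 2.77, 3.52 and 4.18 in db1, db2 and db5 and 3.26 in C6. Trim3 had folds of 2.96, 3.62 and 3.09 in db1, db2 and db5 and 3.73 in C5. The single lean fold was below the db/db folds for Trim11, within them for Fbxl5 and above them for Trim3.

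In the other direction, Cul2, the scaffold of the von Hippel-Lindau ligase, had folds of 2.79, 2.64 and 3.39 in C5, C6 and C7 and 2.69 in db4. Rnf146, a ligase directed by poly-ADP-ribose that acts on the Wnt regulator axin, had best folds of 3.95, 3.86 and 2.58 in C6, C7 and C8 and 4.66 in db2. All lean folds of Rnf146 were below 4, so that its lean excess of 50 percentage points turned to a db/db excess of 25 points at a fold of at least 4.

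**Figure D3:**
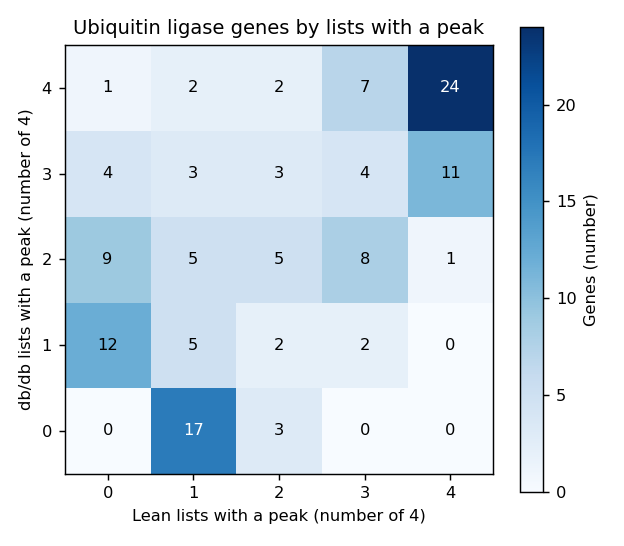
Number of ubiquitin ligase genes for each combination of db/db lists (vertical axis) and lean lists (horizontal axis) with a peak, out of 4 each. The corner with all 8 lists holds 24 genes, the corner with 4 db/db and 0 lean lists holds 1, and the corner with 0 db/db and 4 lean lists holds 0.

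Cullins were taken as a group because they are the scaffolds of larger ligase complexes, with F-box proteins holding the substrate for Cul1. Cul3, the scaffold for BTB-domain adaptors such as the oxidative stress sensor Keap1, was the cullin called in every list. Its region (chr1:80340246-80340480, minus strand, close to the 5′ end) had folds of 6.17, 10.54, 12.05 and 6.09 in db1, db2, db4 and db5 and 5.55, 4.71, 3.51 and 4.77 in C5 to C8, with the same start and end each time. The db/db folds were all above the lean ones. Since depth is unknown and genes whose folds separate in this way were not counted, no change is read from this.

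Cul5, the scaffold of SOCS-box ligases, was called in 3 db/db and 4 lean lists, with best folds of 3.63, 5.32 and 2.71 in db1, db2 and db4 and 6.77, 4.64, 4.83 and 5.99 in C5 to C8. At its transcript start (chr9:53667038-53667511, minus strand) the peak was called in db2 and in the 4 lean lists. That region also meets Gm16124, and without strand in the lists the 2 genes cannot be told apart there.

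Cul1, the scaffold of SCF ligases, had peaks only in C5 and C6, at folds of 5.49 and 6.87, in 1 region near its 5′ end (chr6:47454320-47454483, plus strand). Cul4a and Cul4b, the scaffolds that work with Ddb1, were called in 0 and 2 db/db lists and in 2 and 3 lean lists. Cul7 was called in db4 and db5 at 3.41 and 4.82 and in C5, C6 and C8 at 5.93, 3.72 and 3.48. Of the 8 cullins, 6 had a peak in more lean lists, 1 in more db/db lists (Cul9), and Cul3 in equal numbers, where all genes stood at 30.1%, 38.2% and 31.7%.

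Among Herc genes, Herc1 had 10, 8, 7 and 4 peaks in db1, db2, db4 and db5 and 6, 5, 8 and 8 in C5 to C8. Herc2, a ligase of the DNA damage response, had 8, 7, 3 and 6 and 3, 8, 7 and 7 peaks. For both genes the groups overlapped fully. Herc4 was called at its transcript start in every list, where its region (chr10:63243797-63244163) meets the neighbouring transcript 1700120B22Rik. Folds of the Herc4 start peak were 6.42, 3.69, 4.07 and 4.32 in the db/db lists and 6.58, 5.54, 9.83 and 8.72 in the lean lists. Herc6, the main ligase for the ubiquitin-like protein ISG15 in mice, was called in 2 lists of each group, and Herc3 in C5 alone.

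Because a gene can be called in every list at different sites, regions were compared as well. Of the 351 member regions, 2 (0.570%) were called in all 4 db/db and no lean list, with 0.853% of all regions as the background, and 2 in all 4 lean and no db/db list, beside 0.708%. Fisher's exact test passed 0 of 25437 regions after Benjamini-Hochberg adjustment (0% called), against 397 at an unadjusted p under 0.05, of which 4 were member regions. At least 3 lists against at most 1 was met by 24 regions toward db/db (6.84%, background 6.07%) and by 15 toward lean (4.27%, background 4.81%). All 4 genes with a group-specific region also had peaks elsewhere in the other group.

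Rnf169, which binds ubiquitin-marked histones at DNA breaks, had a region of 74 bp (chr7:99955467-99955540, minus strand) with folds of 3.25, 4.62, 5.73 and 6.88 in db1, db2, db4 and db5 and none in the lean lists. The gene had 3, 3, 6 and 3 peaks in the db/db lists and 1, 0, 1 and 2 in C5, C6, C7 and C8, so the numbers did not overlap. The exact two-sided permutation test of these numbers gave an unadjusted p of 0.0286 and an adjusted p of 0.934 over 8602 genes. A second region (chr7:99942959-99943105) was called in the 4 db/db lists and C8.

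Fbxl19, a CpG-island-binding F-box protein, had a region (chr7:127749710-127749853, plus strand) with folds of 3.07, 3.99, 4.04 and 3.62 in db1, db2, db4 and db5. C6 and C7 had a peak of this gene at another place.

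Trim33, a regulator of TGF-beta signalling that acts on Smad4, had the reverse pattern. A region of 165 bp (chr3:103330080-103330244) had folds of 4.13, 4.88, 4.34 and 3.21 in C5, C6, C7 and C8, and none in db/db lists. Another one close by (chr3:103331610-103331807) was called in C5, C6 and C7. The gene had 2, 2, 1 and 2 peaks in the db/db lists and 4, 4, 5 and 4 in the lean lists, without overlap (exact two-sided permutation test, unadjusted p = 0.0286, adjusted p = 0.934). A further region near the low bound of the gene (chr3:103279656-103280446) was called in all 8 lists at folds of 4.78 to 10.86.

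Fbxw7, the substrate receptor for cyclin E, Myc and SREBP proteins, was called in every list. One of its regions (chr3:84977273-84978251, plus strand), within the last 10% of the gene, was called in the lean lists alone, at folds of 2.91, 3.75, 4.56 and 6.53 in C5 to C8. At a fold of at least 4 that region was left in 2 of the 4 lists, those of Trim33 and Rnf169 in 3 each, and that of Fbxl19 in 1.

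Regions of Trim37 and Rnf10 are named after their values had been seen. The start of Trim37, mutated in a human growth disorder, was called at folds of 4.05, 6.91, 11.05 and 7.71 in db1, db2, db4 and db5 and at 3.75 in C8 (chr11:87127075-87127494, plus strand). With folds under 4 dropped, that region was therefore specific to db/db lists. Rnf10, called at its start in every list, had a second region (chr5:115247169-115247286, minus strand) in db2, db4 and db5 at folds of 6.42, 5.81 and 6.11, and in no other list.

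**Figure D4:**
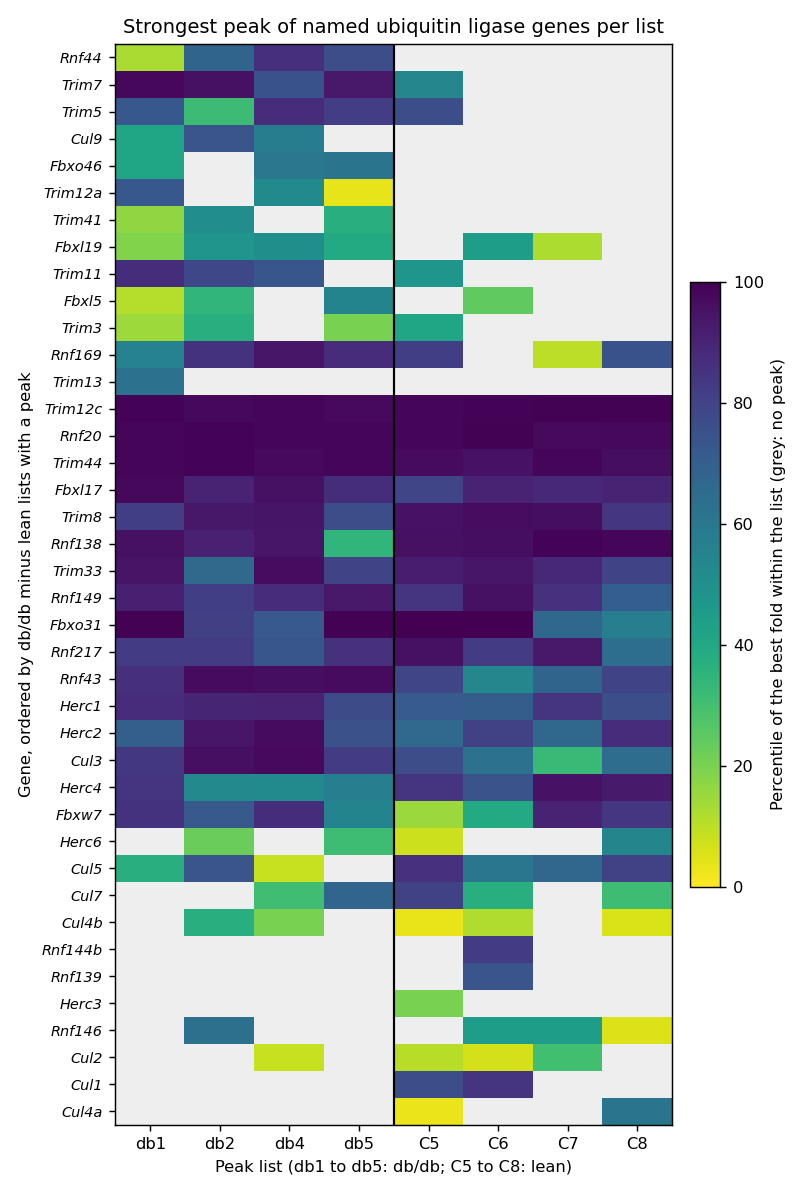
Strongest peak of the named ubiquitin ligase genes reported here in each list, as the percentile of its fold among all peaks of that list (colour scale 0 to 100; grey: no peak), with genes ordered by db/db minus lean lists. Rnf44 at the top has a peak in the 4 db/db lists alone, and genes from Trim12c to Fbxw7 have one in all 8.

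Member peaks were most frequent in the first 10% of the gene from its 5′ end, as were the peaks of all genes, but most lay farther along. Of the 751 peaks in the 103 members with a known strand, 214 (28.5%) had their centre in the first 10% of the gene and 8.66% in the last 10%, beside 24.2% and 11.4% of all peaks placed. Member peaks of the first 10% had a median width of 366 bp, against 187 bp for the rest, beside 252 and 164 bp over all genes. Peaks that reached the annotated 5′ bound itself were 7.46% of member peaks and 8.67% of all.

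By list, the share of member peaks in the first 10% of the gene was 31.3%, 25%, 22.0% and 27.1% in db1, db2, db4 and db5 and 33.7%, 33.0%, 23.6% and 34.6% in C5, C6, C7 and C8. The means were 26.3% ± 3.90 and 31.2% ± 5.13 (SD, n = 4 each), and the groups overlapped through C7. Over all genes the shares were 22.4% ± 1.08 and 26.2% ± 1.82 and did not overlap. Whether such peaks fall in untranslated or coding sequence was not examined, since exon annotation was not used here.

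**Figure D5:**
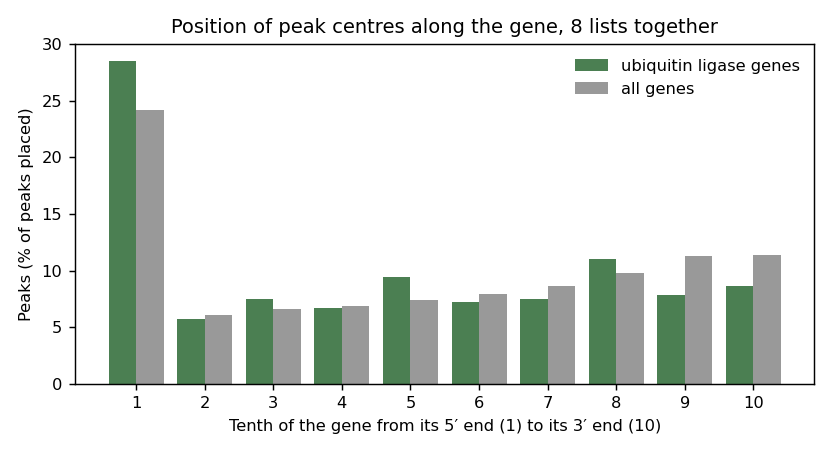
Share of peaks (%) by position along the gene in 10 equal bins from the 5′ end (1) to the 3′ end (10), for ubiquitin ligase genes (green, 751 peaks) and all genes (grey), 8 lists together. The first bin holds 28.5% of member peaks and 24.2% of all peaks.

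Of the 29 members called in a single list, the 3 with the strongest peak by rank were Rnf144b and Rnf139 in C6, at folds of 6.38 and 5.45, and Trim13 in db1 at 4.55. Rnf139 and Trim13 are ligases of the endoplasmic reticulum membrane.

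Other genes of the ubiquitin ligase machinery were described from lists chosen for this purpose. Of 54 symbols listed for cullin partners (RING subunits, adaptors and genes of the NEDD8 cycle that activates cullins), 50 matched a RefSeq symbol and 36 had a peak. Some genes were listed under 2 names, so 54 is not a number of genes. A peak was found for 19 ± 3.92 per db/db and 19.5 ± 3.32 per lean list (n = 4 each). At least 3 lists against at most 1 was met by 2 of the 36 toward db/db and 3 of the 36 toward lean, beside 7.16% and 5.03% of all genes with a peak. Cand1, which exchanges substrate receptors on cullins, was called in 0 db/db and 3 lean lists, and Cops8, a subunit of the COP9 signalosome that removes NEDD8, in 1 and 4. Kdm2b and the F-box gene Btrc went the other way, with 4 db/db lists each and 1 and 2 lean lists.

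Of 22 HECT ligase genes outside the Herc family, 16 had a peak, with 11.75 ± 0.957 per db/db and 11 ± 1.63 per lean list. The wider pattern was met by 0 of the 16 toward db/db and by 1 of the 16 toward lean (background 7.16% and 5.03%), Arel1, called in 0 and 3 lists. Ube3a, the Angelman syndrome ligase, was called in 0 and 2, and Wwp2 in 4 and 2. Of 82 symbols listed for RING and U-box ligases with other names, 74 matched a RefSeq symbol and 67 had a peak. Here too the number of symbols is not a number of genes. A peak was found for 43.5 ± 2.38 per db/db and 39.25 ± 1.89 per lean list. The wider pattern was met by 10 of the 67 toward db/db and 6 of the 67 toward lean (background 7.16% and 5.03%). Both shares lay above the background, which was not tested. Arih1 and Hltf were called in 3 db/db and 0 lean lists. The mitochondrial ligase gene March5 had a peak in 0 and 3, and Mdm4, a partner of the p53 ligase Mdm2, in 1 and 4.

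Markers of other liver cell types were examined beside these counts. Stellate cell and fibroblast markers had a peak in 4.5 ± 1.29 of 10 genes per db/db list (3 to 6) and 2.75 ± 1.26 per lean list (1 to 4), sinusoidal endothelial markers in 5.5 ± 1.73 and 6 ± 2 of 10, and Kupffer cell markers in 2 ± 0.816 and 2.5 ± 1 of 10. Hepatocyte markers had 1.5 ± 1 and 0.25 ± 0.5 of 12, cholangiocyte markers 2.25 ± 1.5 and 1.75 ± 0.5 of 6, and lymphocyte markers 1.25 ± 0.957 and 0.25 ± 0.5 of 6. Adgre1 and Cd68 of Kupffer cells and Cd3e of lymphocytes had no peak in any list. The part of cell composition in the counts of ligase genes was not tested.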

How the data were processed

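Immunoprecipitated and input RNA of 16 liver samples was sequenced, 4 of each kind per group. The tools named in the submitters' processing notes are cutadapt 1.9.3 and HISAT2 2.0.4, with the mm10 build. Per the file headers the 8 deposited lists hold MACS peaks, and the sources used here do not give whether samples were pooled or inputs served as controls. The authors deposited a score for each peak (minus 10 times the decimal logarithm of its p-value), a fold enrichment (a linear ratio), a false discovery rate in percent, and a width in base pairs. Scores began at 13.02 and folds at 2. The deposited starts count from 0, since 2127 of them equal a gene start counted so, and starts printed here count from 1.

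Lists were matched to groups only, because db5 and C5 to C8 are no sample titles although db1, db2 and db4 are, and nothing says that samples are separate animals, so p-values measure the spread between lists, which may be technical. A gene was called in a list where it had any peak. Peaks sharing 1 bp were merged into regions. Presence was tested by two-sided Fisher's exact test and the number of peaks by an exact permutation test over 70 arrangements, with Benjamini-Hochberg adjustment over all genes or regions. Scripts were tested on simulated data. The ligase genes and gene lists were chosen with earlier results of these data known. Genes named are those called in at least 3 lists of one group and at most 1 of the other, the 12 strongest by rank among those called in all 8 lists, those with a group-specific region, all Cul and Herc genes, the 3 strongest called in 1 list, and up to 4 genes of each other list whose calls differed most. Some genes that this rule selects are not reported here. Alternatives were a fold of at least 4, a score of at least 50, equal numbers of peaks per list (7583), each list left out, another overlap rule, and pathway genes kept. Gene bounds and start windows came from RefSeq (GRCm38.p6), where all 130 members matched and 103 had a strand. Python 3.11.15, pandas 2.3.3, numpy 2.4.6, scipy 1.17.1 and matplotlib 3.10.9 were used.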

Additional observations from a re-analysis of the deposited data

Results flagged for a closer look

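In groups of 4 lists, 84 sets of values were searched for a list that lies far from the others by Dixon's criterion, and 6 were found. The criterion's chance rate of about 1 in 20 is meant for continuous values. Where the other 3 counts of a group tie, any different count is flagged, even by 1. That rate therefore does not hold for the counts of Fbxl genes and of Rnf169 and Trim33 peaks below. The db5 list had a peak in 6 Fbxl genes, against 5 in each other db/db list. The C7 list had 23.6% of its member peaks in the first 10% of the gene, against 33.0% to 34.6% in the other lean lists. The best fold of Herc4 was 6.42 in db1, while db2, db4 and db5 lay at 4.07 to 4.32. Rnf169 had 6 peaks in db4, against 3 in the others of its group. Trim33 had 1 peak in db4, against 2 in the other db/db lists, and 5 in C7, against 4 in the other lean lists.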

How the results depend on the processing

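The db/db excess of 6.75 members per list kept its direction under each alternative run (1.0 to 6.25, and 3.75 to 9.42 with each list left out in turn). The single db/db-specific gene, Rnf44, was lost at a fold of at least 4, at a score of at least 50 and with equal numbers of peaks per list (0 each). Its difference of 100 points (db/db minus lean) was still 75 at that fold and with equal peak numbers, and 25 at that score. The pattern of at least 3 lists against at most 1 gave 10 genes toward db/db and 2 toward lean. The 2 db/db-specific regions became 0 at a score of at least 50 and 1 with equal peak numbers. A minimum fold of 4 left 2 again, but those of Rnf40 and Trim37 in place of Rnf169 and Fbxl19. The 2 lean-specific regions became 0 at that fold and at that score. With each list left out the db/db-specific genes numbered 1 to 3 and the lean-specific genes 0, with 2 to 6 db/db-specific regions and 2 to 5 lean-specific regions. The number of db/db-specific genes was 2 or 3 without db2, db4, db5 or C5, that of db/db-specific regions 4 to 6 without db1, db2, db4, C5, C6 or C8, and that of lean-specific regions 4 or 5 without C5 or C8. Fewer lists must agree when one is left out. The excess of Rnf146 of -50 percentage points (db/db minus lean) became 25 once folds under 4 were dropped. Of 15 named genes with a difference of at least 50 points, 8 kept that size at a fold of at least 4, 3 at a score of at least 50 and 13 with equal numbers of peaks. Named genes with a smaller difference also gained one of at least 50 points. At that fold these were Fbxw7 (0 to 50), Rnf169 (25 to 50) and Cul5 (-25 to -75), at that score Rnf43 (0 to 75), Rnf169 (25 to 75) and Herc4 (0 to -75), and with equal peak numbers Cul5 and Cul7 (-25 to -50 each). The cause of the other changes was not tested. Member genes and regions past an adjusted p of 0.05 stayed at 0 under each alternative run, which says nothing about single genes in this design. No paired analysis was possible because the lean lists are numbered C5 to C8, which match no sample title, and db/db and lean lists share only the number 5, which no sample carries. Sequencing depth is unknown, so an absent call sets no limit on acetylation.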
